A study of Mus musculus with 8 samples.

Results

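Bdnf, its sister neurotrophins and the receptors that bind them were read in 4 arrays of the mouse cell line SThdh111/111 and 4 arrays of the line SThdh7/7. The members were Bdnf, Ntf3, Ntf5, Ntrk2, Ntrk3, Ngfr and Sort1, and every probe set that the platform's gene table assigned to exactly 1 of them was taken. This gave 25 of the 45037 probe sets and 6 of the 7 genes, out of 18193 genes named on the array. Ntf3 was not analysed here. Both lines were derived from the embryonic striatum of Huntingtin knock-in mice and immortalised conditionally, and the number gives the polyglutamine length of the 2 Htt alleles. The long allele models Huntington's disease, and both lines carry the immortalising gene. Each genotype is a single line, so the allele and any other difference between the lines cannot be told apart. The labels do not state whether the 4 samples of a line were separate cultures, so the p-values reflect the spread between these samples alone, which may be technical. The labels name no treatment and no time. Total RNA was biotin-labelled and hybridised to Affymetrix whole-genome mouse arrays, and values are intensities on a linear scale or their log2.

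Neurotrophins are secreted as proforms that are cut to mature dimers. Mature BDNF and NT-4/5, the product of Ntf5, bind the tyrosine kinase TrkB (Ntrk2), and NT-3 binds TrkC (Ntrk3). The receptor p75 (Ngfr) binds all neurotrophins, and with sortilin (Sort1), which also sorts proBDNF inside the cell, it forms a receptor for the proforms. Striatal neurons depend on BDNF that is largely made in the cortex and carried to them, and normal huntingtin is known to aid both Bdnf transcription and the transport of BDNF vesicles. The comparison therefore asks whether transcripts of this system differ between a line with long and a line with short Htt alleles.

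Mouse Bdnf is transcribed from several alternative first exons, all spliced to 1 shared coding exon. RefSeq's promoter table (GRCm38.p6) held windows for 4 of the 7 genes, with 7 start sites for Bdnf. The window shown is the only one of these 7 that holds TCACGTCA, a form of the cAMP response element through which calcium and CREB are known to act on Bdnf. It covers the 250 bases before the start site, at chr2:109692186-109692435 on the plus strand, and the capitals mark the match, which begins at position -38 relative to the start.

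Bdnf promoter window: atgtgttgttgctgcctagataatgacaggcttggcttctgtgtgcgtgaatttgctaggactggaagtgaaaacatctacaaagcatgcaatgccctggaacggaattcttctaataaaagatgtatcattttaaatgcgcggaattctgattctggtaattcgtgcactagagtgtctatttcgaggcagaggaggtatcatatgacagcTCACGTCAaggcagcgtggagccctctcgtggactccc

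On either strand TCACGTCA occurred in 0.35% of all 32851 such windows. The palindromic element TGACGTCA, in 1.55% of windows, and TTCAGCACC, the left part of the REST binding element, in 0.301%, were in 0 of the 7 Bdnf windows. The windows of Ngfr and Ntrk2 held 0 matches to any of the 3. Bases outside these windows, such as those after a start site, were not searched, so a site there would be missed. These are matches of letters only, and the array bears on them only in sum. By the maker's naming, both Bdnf probe sets (suffix _a_at) read alternative transcripts of the gene together, so no start site could be followed by itself.

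As a measure of brightness, a floor was set at an intensity of 130.0 (log2 7.02), which is the 95th percentile of the 27 control probe sets for bacterial transcripts, on the array where it was highest. That percentile was 72.0 to 77.5 on the SThdh111/111 arrays and 98.7 to 130.0 on the SThdh7/7 arrays, and 1 floor was used for both. Of the 25 member probe sets, 6 lay above the floor on all 4 arrays of at least 1 line, and 10 lay below it on all 8 arrays. The bright ones were both probe sets of Bdnf, all 3 of Sort1 and 1 of Ntrk2. A filter on dim values (a log2 of 4 or more on 4 or more of the arrays) kept 23 of the 25.

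Across the whole array 9288 of 41409 kept probe sets differed between the lines at an adjusted p under 0.05 (22.4%), in limma's moderated test with Benjamini-Hochberg adjustment over all of them. The share called lower in SThdh111/111 was 12.6%, and the arrays of the lines did not overlap at 25.1% of probe sets. Among the 23 tested member probe sets 3 were called, all lower, and the same 3 were those without overlap. Both counts, 3 of 23, are near or under these shares. Of probe sets above the floor on all 4 arrays of a line 39.2% were called, against 3 of the 6 such member probe sets. Over all kept probe sets the difference had a median of -0.12 on the log2 scale, and of 0.04 once arrays were centred on their medians. With that centring 39.5% of all calls were lower, against 56.0% as deposited. SThdh7/7 samples 1 and 2 had median intensities of 173.9 and 174.0, against 136.2 to 147.0 on the SThdh111/111 arrays and 137.7 and 139.7 on the other SThdh7/7 arrays.

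Bdnf, which encodes the neurotrophin named for brain-derived trophic support, fell in SThdh111/111 at the brighter of its 2 probe sets. Probe set 1422168_a_at measured 1133, 874, 898 and 872 in SThdh111/111 samples 1 to 4, against 1275, 1597, 1492 and 1649 in SThdh7/7. All 4 SThdh111/111 arrays were below all 4 SThdh7/7 arrays, with sample 1 the highest of its line and the other 3 close together. The means were 9.87 ± 0.18 in SThdh111/111 and 10.55 ± 0.17 in SThdh7/7 (log2 intensity, SD, n = 4 each). The difference was -0.67 ± 0.11 (log2, SE; adjusted p = 4.4e-04 in limma), which puts SThdh111/111 at 62.7% of SThdh7/7. Its 95% interval ran from -0.91 to -0.43. In total RNA of a culture, fewer cells that make a transcript and less of it per cell cannot be told apart.

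The other Bdnf probe set, 1422169_a_at, gave the same direction but was not called. It measured 817, 931, 622 and 1059 in SThdh111/111 and 1098, 1042, 1057 and 1167 in SThdh7/7. SThdh111/111 sample 4 lay within the SThdh7/7 range, and the other 3 lay below it. The SThdh111/111 arrays were also more spread, at 9.72 ± 0.33 against 10.09 ± 0.07 (log2 intensity, SD, n = 4 each). The difference was -0.37 ± 0.14 (log2, SE; adjusted p = 0.075 in limma), and it passed without SThdh111/111 sample 4 (-0.48, adjusted p = 0.02) and stood at -0.23 without sample 3. The log2 ratio of the 2 probe sets within an array, 0.16 ± 0.41 in SThdh111/111 and 0.46 ± 0.17 in SThdh7/7 (SD, n = 4 each), differed by -0.30 (exact permutation test, two-sided, p = 0.257). So the probe sets were not shown to differ in their response. The mean of both, an alternative chosen after the data were seen, was lower by 0.52 on the log2 scale, with 9.80 ± 0.17 in SThdh111/111 against 10.32 ± 0.10 in SThdh7/7 (adjusted p = 0.0014).

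**Figure D1:**
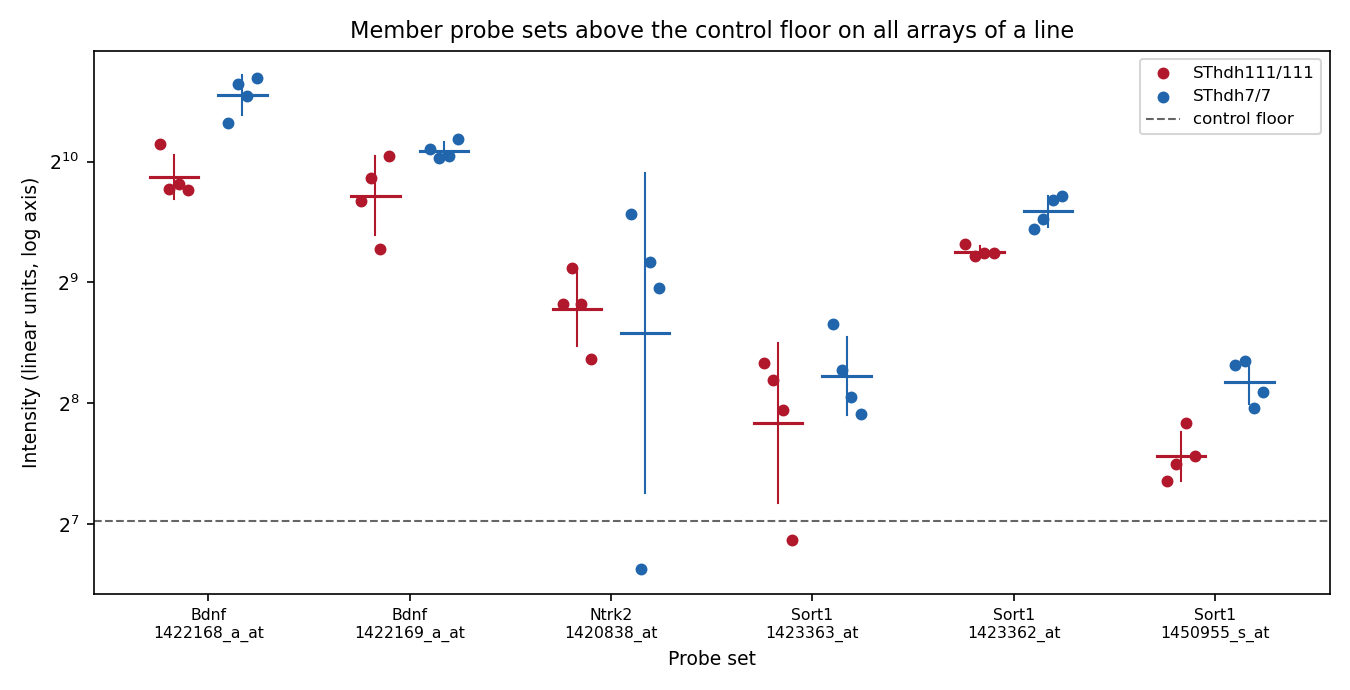
Intensity (linear units on a log axis) at the 6 member probe sets above the control floor on all 4 arrays of a line; points are arrays, horizontal bars the mean and vertical bars the SD of log2 values (n = 4 each), the dashed line the floor of 130.0. SThdh111/111 and SThdh7/7 arrays do not overlap at Bdnf 1422168_a_at and at Sort1 1423362_at and 1450955_s_at, while SThdh111/111 sample 4 lies below the floor at Sort1 1423363_at and SThdh7/7 sample 2 at Ntrk2.

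The call of Bdnf 1422168_a_at did not rest on 1 array or 1 scaling. Over the 8 fits that each left out 1 array, its difference ran from -0.76 to -0.63, with adjusted p between 1.6e-04 and 0.0022. After the arrays were centred on their medians it was -0.52 (adjusted p = 0.036), and without SThdh7/7 samples 1 and 2 it was -0.74 (adjusted p = 0.0012).

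Sort1, which encodes the sorting receptor sortilin, fell in SThdh111/111 at 2 of its 3 probe sets. Probe set 1423362_at measured 638, 594, 605 and 605 in SThdh111/111, against 696, 735, 822 and 838 in SThdh7/7. The 4 SThdh111/111 arrays lay close together and below every SThdh7/7 array. The difference was -0.34 ± 0.10 (log2, SE; interval -0.55 to -0.12; adjusted p = 0.029 in limma), with means of 9.25 ± 0.04 in SThdh111/111 and 9.59 ± 0.13 in SThdh7/7 (SD, n = 4 each). Probe set 1450955_s_at, whose suffix marks a set that can match several transcripts, measured 164, 181, 229 and 189 in SThdh111/111 and 319, 326, 249 and 273 in SThdh7/7. It too separated the lines, by -0.62 ± 0.20 (log2, SE; interval -1.05 to -0.18; adjusted p = 0.041). The third, 1423363_at, measured 323, 293, 247 and 117 in SThdh111/111 against 404, 310, 265 and 241 in SThdh7/7. Its lines overlapped and it was not called (-0.39 ± 0.30, log2, SE; adjusted p = 0.43), and the difference was -0.07 without SThdh111/111 sample 4 and -0.15 without SThdh7/7 samples 1 and 2. The mean of the 3, again an alternative chosen after the data were seen, was 8.22 ± 0.22 in SThdh111/111 and 8.66 ± 0.12 in SThdh7/7 (log2 intensity, SD, n = 4 each), a difference of -0.45 (adjusted p = 0.039 in limma).

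The calls of Sort1 depended on the scaling of the arrays, which that of Bdnf did not. After centring on the array medians the differences at 1423362_at and 1450955_s_at were -0.18 and -0.46 (adjusted p = 0.52 and 0.14), and after quantile normalization -0.29 and -0.50 (adjusted p = 0.057 and 0.073). The call at 1423362_at was lost in 5 of the 8 fits that left out 1 array and that at 1450955_s_at in 6, while both differences stayed negative in every such fit. Without SThdh7/7 samples 1 and 2 the first was -0.44 and called, and the second -0.46 and not called (adjusted p = 0.22).

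**Figure D2:**
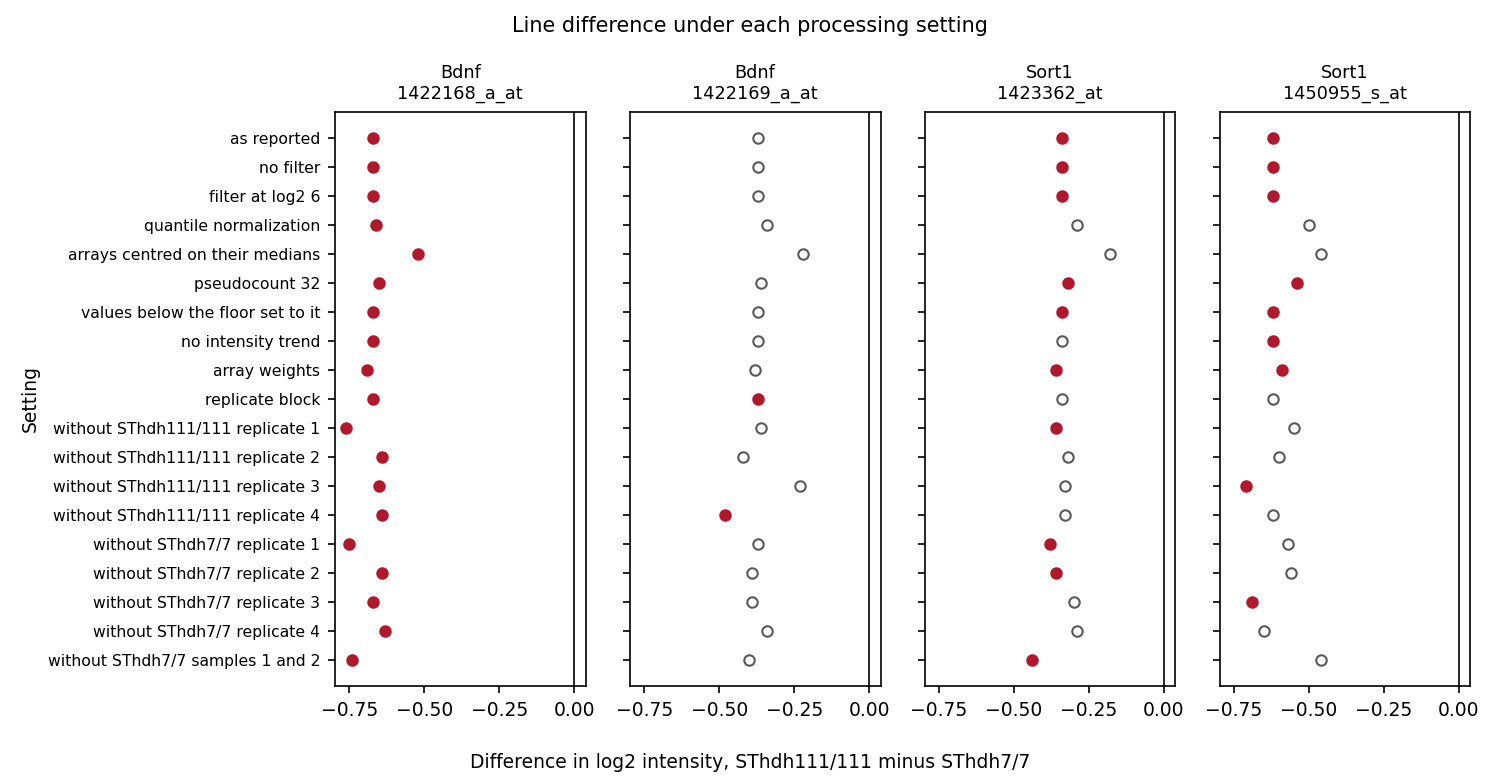
Line difference (log2 intensity, SThdh111/111 minus SThdh7/7) at both Bdnf and the 2 called Sort1 probe sets under the reported fit and 18 other settings; filled red points have an adjusted p under 0.05, open grey points do not. Every point lies below 0, and Bdnf 1422168_a_at alone of the 4 is filled throughout.

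Bdnf was set against the other members by the log2 ratio of the brightest probe sets within each array, which cancels array scaling. Relative to Sort1, Bdnf stood at 0.62 ± 0.14 in SThdh111/111 and 0.96 ± 0.12 in SThdh7/7 (log2 ratio, SD, n = 4 each), a difference of -0.34. The exact permutation test (two-sided) gave p = 0.0286, the smallest that 4 against 4 arrays allow, and 0.143 after adjustment over the 5 members compared. At least 3 of the 5 ratios would have had to reach that smallest p for any to pass an adjusted p of 0.05, so the adjusted value is no sign that Bdnf and Sort1 changed alike. The other 4 members were not above the floor on every array, and their ratios to Bdnf are not given. Those of Ntrk3, Ngfr and Ntf5 follow a dim partner, and that of Ntrk2 follows 1 low array, SThdh7/7 sample 2 (99.0).

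Ntrk2, the gene of the BDNF receptor TrkB, had 8 probe sets, of which 1 was bright and 4 were below the floor on all arrays. At 1420838_at the SThdh111/111 arrays measured 452, 556, 453 and 330, against 759, 99.0, 577 and 496 in SThdh7/7. SThdh7/7 sample 2 fell below the floor at this probe set while the other 3 SThdh7/7 arrays were within or above the SThdh111/111 range. The difference was 0.20 ± 0.48 (log2, SE; interval -0.83 to 1.24; adjusted p = 0.83 in limma), and -0.45 without that array (adjusted p = 0.14). The values are compatible with any difference within that interval, so the lines were not shown to be alike at this probe set.

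The remaining Ntrk2 probe sets lay near or under the floor. Probe set 1446712_at measured 118, 104, 145 and 112 in SThdh111/111 and 184, 185, 94.2 and 153 in SThdh7/7, so that 1 SThdh111/111 array and 3 SThdh7/7 arrays exceeded the floor. Neither it nor any of the other 7 Ntrk2 probe sets was called, with adjusted p between 0.25 and 0.83 in limma. Probe sets 1444121_at and 1458622_at passed the floor on a single array each, SThdh111/111 sample 4 (136) and SThdh7/7 sample 2 (137).

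Ntrk3, the gene of the NT-3 receptor TrkC, was not above the floor on all arrays of either line at any of its 8 probe sets. Its brightest, 1443970_at, measured 165, 80.9, 129 and 164 in SThdh111/111 and 216, 243, 156 and 122 in SThdh7/7. The lines overlapped, with the 2 highest values in SThdh7/7 samples 1 and 2, the arrays with the higher medians. The difference of -0.46 ± 0.33 (log2, SE) was not called (adjusted p = 0.4 in limma). It ran from -0.64, without SThdh7/7 sample 4, to -0.23, without SThdh111/111 sample 2, and was -0.09 without SThdh7/7 samples 1 and 2. Of the other 7 probe sets 4 were under the floor on all 8 arrays, down to 4.59 in SThdh111/111 and 3.53 in SThdh7/7, and 1 of these, 1425070_at, did not pass the filter. The other 3, 1426003_at, 1422329_a_at and 1433825_at, exceeded the floor on 1, 2 and 2 SThdh111/111 arrays and on 2, 2 and 1 SThdh7/7 arrays, and their lines overlapped. Among all 7 tested Ntrk3 probe sets adjusted p ran from 0.4 to 1.

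Ngfr, the gene of p75, was near the floor in both lines. At 1454903_at the SThdh111/111 arrays measured 154, 129, 162 and 46.8 and the SThdh7/7 arrays 352, 50.6, 180 and 38.6. Each line had 2 arrays above the floor, and the highest and the lowest of the 8 were both SThdh7/7 arrays. The difference was 0.07 ± 0.67 (log2, SE; interval -1.36 to 1.51; adjusted p = 0.96 in limma). The other probe sets, 1421241_at and 1450177_at, stayed at or under 45.9 on every array, and the second did not pass the filter.

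Ntf5, the gene of NT-4/5, had 1 probe set, 1440353_at. It measured 114, 123, 146 and 130 in SThdh111/111, against 164, 61.5, 41.4 and 104 in SThdh7/7. In each line 1 array passed the floor, and SThdh111/111 sample 4, at 129.6, lay just under it. That floor came from an SThdh7/7 array. All 4 SThdh111/111 values exceeded the control percentile of their own arrays (72.0 to 77.5). SThdh7/7 samples 2 and 3 lay below the lowest such percentile of their line (98.7). The SThdh7/7 arrays ranged more widely, and the difference of 0.65 ± 0.44 (log2, SE) was not called (adjusted p = 0.36 in limma). It was 0.33 without SThdh7/7 sample 3 and 0.99 without SThdh7/7 sample 1.

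**Figure D3:**
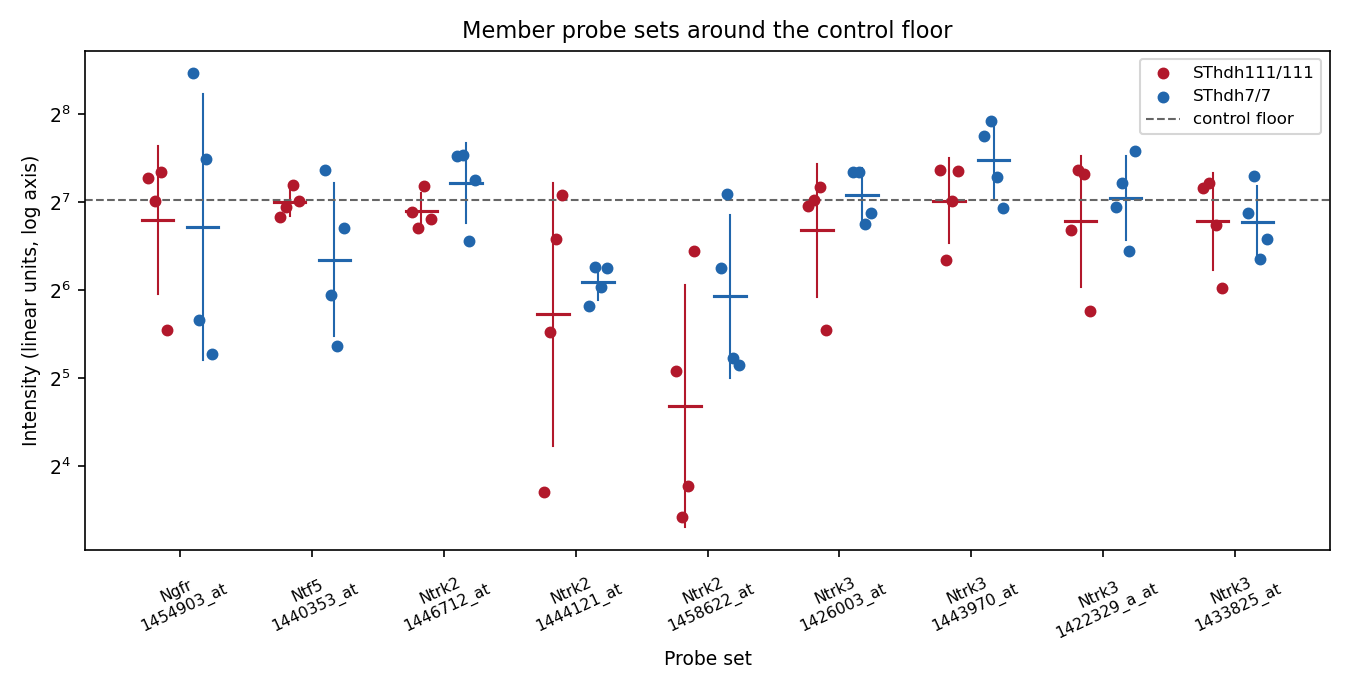
Intensity (linear units on a log axis) at the 9 member probe sets that passed the control floor of 130.0 on some arrays but not on all 4 of either line; points are arrays, bars the mean and SD of log2 values (n = 4 each). SThdh111/111 and SThdh7/7 arrays overlap at every one of the 9.

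Within genes, 17 ratios of the brightest probe set to the others were compared between the lines by exact permutation tests, of which at least 10 would have had to reach the smallest possible p for any to pass after adjustment. That adjustment can therefore show nothing here, and most of the 17 involve probe sets near or under the floor. The intervals of the dim receptor probe sets were wide. That of Ntrk2 1435196_at, the tested member with the largest positive difference, ran from -0.24 to 2.50 on the log2 scale, and all of its 8 arrays were below the floor.

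**Figure D4:**
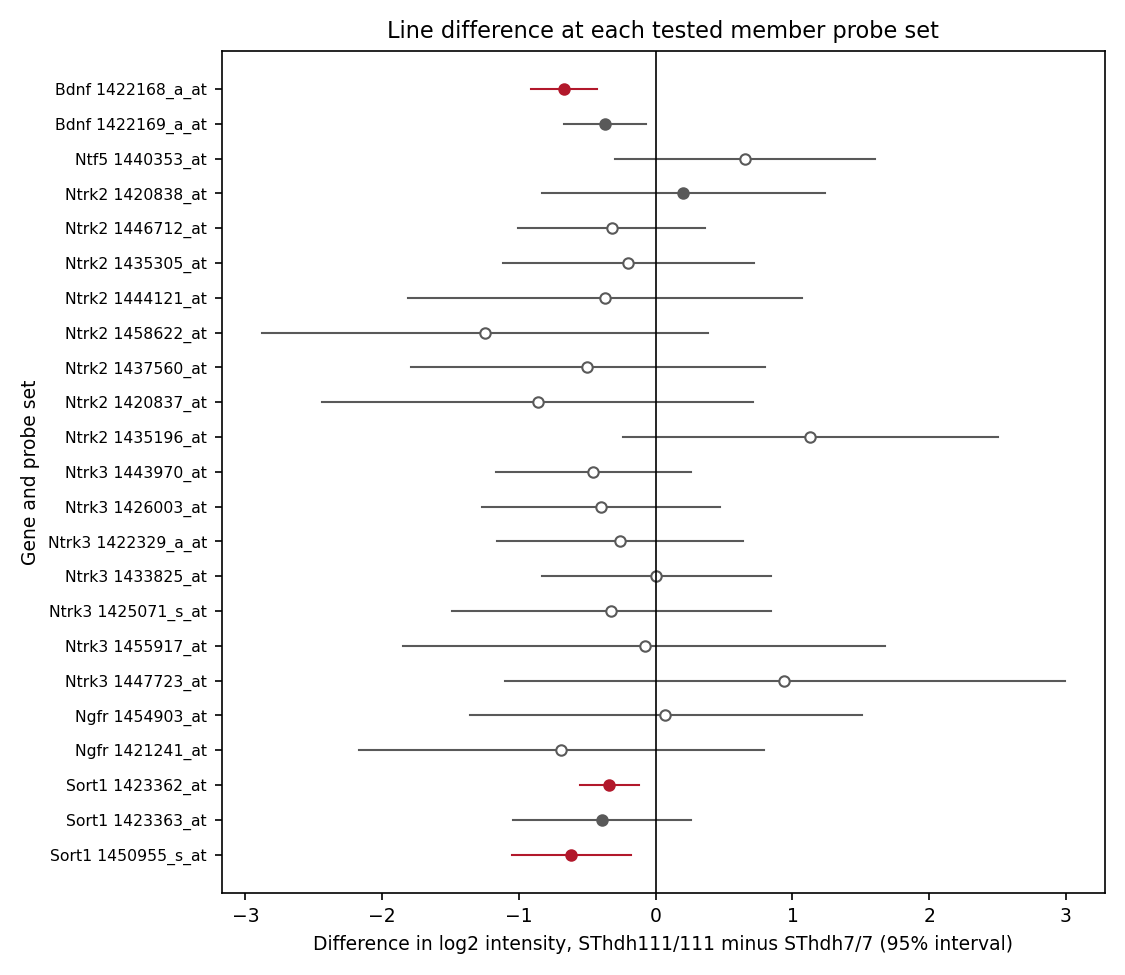
Difference in log2 intensity, SThdh111/111 minus SThdh7/7, with its 95% interval from limma at the 23 tested member probe sets; red marks an adjusted p under 0.05, and filled points are probe sets above the control floor on all 4 arrays of a line. The 3 called probe sets, of Bdnf and Sort1, lie below 0, and intervals are widest at the dim receptor probe sets.

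The genes with the most similar profiles over the 8 arrays were found by the root mean square distance between log2 profiles, each centred on its own mean, among 19687 other named probe sets above the floor. For Bdnf 1422168_a_at they were Ttc8, a subunit of the BBSome of cilia (distance 0.076), Trmt2a, a tRNA methyltransferase gene (0.082), and Hmgcs1, an enzyme of cholesterol synthesis (0.091). Their line differences were -0.63, -0.75 and -0.62. For Sort1 1423362_at they were Ywhae, a 14-3-3 protein gene, Grsf1, an RNA-binding protein gene, and Nomo1, at distances of 0.032, 0.033 and 0.038. For Ntrk2 1420838_at they were Kcna4, a potassium channel gene, Ern1, a sensor of unfolded protein, and Retn, at 0.185, 0.267 and 0.284. The SThdh7/7 arrays of these 3 were widely spread, with SDs of 1.34, 0.98 and 1.29 on the log2 scale, beside 1.33 for Ntrk2. All these genes were picked on the same 8 arrays for a like profile, so like line differences and spreads follow from the choice.

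Genes that act around the neurotrophins were followed in 7 lists holding 132 genes, of which 114 were named by a probe set of their own and 113 were tested, with the brightest probe set standing for each gene. In SThdh111/111 22 were called higher (19.5%) and 23 lower (20.4%). Over all 17389 named genes tested 13.1% were called higher and 15.9% lower. Most listed genes were bright, however, so this is not a like background. Of all kept probe sets above the floor on all 4 arrays of a line 39.2% were called in either direction, against 45 of the 113 listed genes. These shares are not alike either, since the 113 include dim genes. All 45 called genes were above the floor on all 4 arrays of a line, so the share among bright listed genes was higher than 45 of 113. With the arrays centred on their medians 23 of the listed genes were higher and 11 lower. Median differences below can be read against -0.09 over all named genes.

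Among the other receptors of the family 2 of 5 tested fell and 0 rose, also with centred arrays (median difference -0.87). Both belong with sortilin to the Vps10 domain receptors. Sorcs2, known as a proneurotrophin receptor that pairs with p75, fell by 2.24 on the log2 scale (8.25 ± 0.21 in SThdh111/111 and 10.48 ± 0.10 in SThdh7/7, SD, n = 4 each; adjusted p = 1.0e-08 in limma). Sorl1, a sorting receptor of endosomes, fell by 1.80 on the log2 scale (8.54 ± 0.15 in SThdh111/111 and 10.33 ± 0.22 in SThdh7/7; adjusted p = 1.6e-07). Sorcs3 differed by -0.87 ± 0.38 (SE, adjusted p = 0.13), with 3 of 4 SThdh111/111 arrays above the floor, and Sorcs1 was below the floor on all 8 arrays. Nradd, a p75-like receptor gene, differed by -0.30 ± 0.11 (SE, adjusted p = 0.07).

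Of 11 proneurotrophin processing genes 4 rose and 1 fell (median 0.17). The metalloproteinase gene Mmp3 rose by 2.46 ± 0.16 (log2, SE; adjusted p = 6.5e-08 in limma) and Plat, the gene of tissue plasminogen activator, by 0.70 ± 0.11. Furin, a convertase that cuts proforms, fell by 0.40 (log2; adjusted p = 0.0059), a call lost after centring (-0.25, adjusted p = 0.2).

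Of 27 Trk adaptors and signal transducers 4 rose and 6 fell, but 4 and 2 after centring (median -0.17). The docking protein gene Gab1 rose by 1.06 ± 0.13 (log2, SE; adjusted p = 4.4e-05 in limma). Plcg1, a phospholipase bound by active Trk, differed by 0.30 ± 0.08 and passed (adjusted p = 0.016), but the mean over its probe sets was -0.10, and the call was lost without SThdh111/111 sample 1 or sample 2 (0.26 and 0.27). The adaptor gene Crkl fell by 0.69 (log2). The phosphatase gene Ptpn11 fell by 0.40, and its call was lost after centring (-0.24) and as a mean over its probe sets (-0.02).

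Of 17 partners and effectors of p75 3 rose and 5 fell, and 3 and 2 after centring (median 0.01). Bex3, which encodes a p75-associated cell death protein, fell by 0.58 on the log2 scale (12.87 ± 0.09 in SThdh111/111 and 13.45 ± 0.11 in SThdh7/7; adjusted p = 2.7e-05 in limma), and Ndn, the gene of necdin, by 0.81. Maged1, whose product binds p75, rose by 0.34 ± 0.06 (log2, SE), and the sheddase gene Adam10 by 0.56 ± 0.07, though the mean over the probe sets of Adam10 was 0.21 and not called (adjusted p = 0.39).

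Of 17 regulators of Bdnf transcription 1 rose and 5 fell, and 1 and 3 after centring (median -0.14). The repressor gene Bhlhe40 fell by 1.70 (log2; adjusted p = 5.8e-08 in limma) and the E-box factor gene Tcf4 by 1.00 (adjusted p = 1.9e-05), while Mef2a, an activity-dependent factor, rose by 0.64 ± 0.09 (SE). The CREB gene Creb1, whose protein binds the element printed above, differed by 0.07 ± 0.14 (SE, adjusted p = 0.79), and Rest by 0.16 ± 0.08 (adjusted p = 0.18). Crem, in the same list, was called lower (-1.22 ± 0.26, SE, adjusted p = 0.0036), with 3 of 4 SThdh111/111 arrays above the floor. The part of these regulators in the difference of Bdnf was not tested.

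Of 19 genes of BDNF trafficking and release 2 rose and 3 fell, and 2 and 2 after centring (median -0.12). Kif5c, a neuronal kinesin heavy chain, fell by 2.50 on the log2 scale with 2 of 4 SThdh111/111 arrays above the floor (adjusted p = 5.5e-08 in limma), and the kinesin light chain gene Klc1 fell by 0.82, or by 0.48 as the mean over its probe sets (adjusted p = 0.014). Hap1, which links huntingtin to motors, rose by 0.76 ± 0.11 (SE) and the dynein heavy chain gene Dync1h1 by 0.43 ± 0.09, a call lost with the mean of its probe sets (0.39, adjusted p = 0.2). Htt itself differed by -0.42 ± 0.16 (SE, adjusted p = 0.084).

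Of 17 genes that respond to activity and BDNF 8 rose and 1 fell, and 9 and 0 after centring (median 0.32). The immediate early gene Fos rose by 1.47 ± 0.12 (log2, SE), with 13.32 ± 0.29 in SThdh111/111 and 11.84 ± 0.10 in SThdh7/7 (SD, n = 4 each; adjusted p = 5.0e-07 in limma), and the phosphatase gene Dusp1 by 1.18 ± 0.09. Ccn1 fell by 0.50 on the log2 scale, a call lost after centring (-0.35, adjusted p = 0.16). Such genes respond to many stimuli, serum included.

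**Figure D5:**
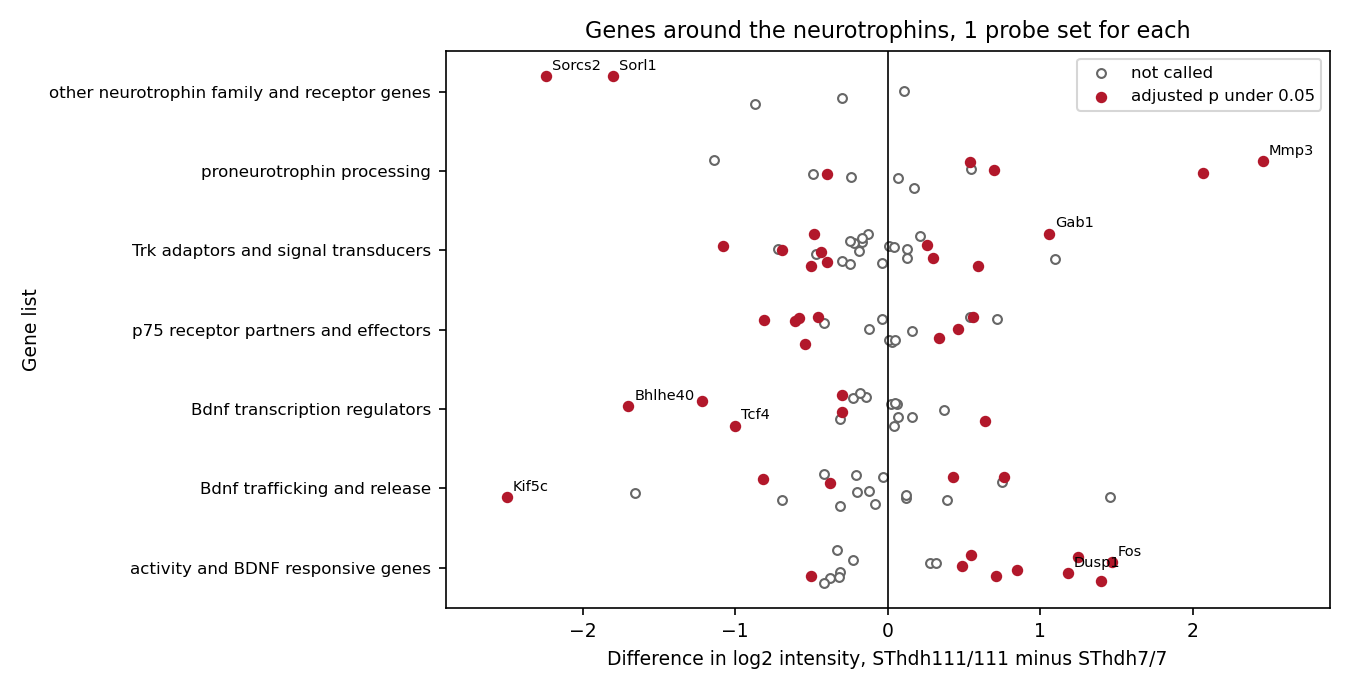
Difference in log2 intensity, SThdh111/111 minus SThdh7/7, of the 113 tested genes in 7 lists around the neurotrophins, 1 probe set for each gene; red points have an adjusted p under 0.05, and labelled genes are the named ones that differed by more than 0.9. Sorcs2, Sorl1 and Kif5c lie far to the left, Mmp3 to the right, and called activity and BDNF responsive genes lie to the right except Ccn1.

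Markers of the cell types were read beside these results. Of 10 striatal projection neuron markers tested, 3 were above the floor on all SThdh111/111 arrays and 2 on all SThdh7/7 arrays, and Ppp1r1b, Drd1 and Gad1 were below it on all 8. In this list 2 rose and 1 fell (2 and 1 after centring, 1 and 1 without SThdh7/7 samples 1 and 2), and these 3 were chosen for naming after their values were seen. Penk, the gene of proenkephalin, rose by 2.96 ± 0.35 (log2, SE; adjusted p = 2.5e-05 in limma), with all 4 SThdh111/111 arrays and 1 SThdh7/7 array above the floor. Foxp1, a transcription factor gene, rose by 0.29 ± 0.08 (SE), and Rgs9, a regulator of G protein signalling, fell by 0.71 on the log2 scale. Of 8 pan-neuronal markers 1 was above it on all SThdh111/111 arrays and 2 on all SThdh7/7 arrays, with Tubb3 and Snap25 below it throughout, and 2 fell (1 after centring). Of 7 neural progenitor markers 4 fell and 0 rose, also after centring. Pax6 fell by 5.02 on the log2 scale, with 0 SThdh111/111 and 4 SThdh7/7 arrays above the floor. The others were Sox2 (-2.06), Nes (-1.38) and Notch1 (-0.79). Vim, in the same list, was bright in both lines at 15.50 ± 0.05 in SThdh111/111 and 15.50 ± 0.10 in SThdh7/7 (log2 intensity, SD, n = 4 each). Fibroblast and mesenchymal markers rose in 7 of 8 cases, with a summed intensity of 107552 to 126262 in SThdh111/111 against 26770 to 32334 in SThdh7/7. Their part in the differences of Bdnf, Sort1 and the other genes was not tested. Of the lists for other cells that can express p75, 1 of 6 Schwann and neural crest markers rose (0 after centring), with Foxd3 and Cdh19 below the floor on all arrays. Astrocyte markers rose in 2 and fell in 1 of 7 cases, oligodendrocyte markers fell in 1 of 4 (0 after centring), microglial markers rose in 2 and fell in 1 of 7, and endothelial and mural markers were called in 0 of 7 by limma.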

How the data were processed

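The authors deposited a table of linear intensity values, with 1 value for each probe set on each of the 8 arrays. The submitters' processing notes name GCRMA, but the deposited values do not have its form: their mean after 2% was trimmed from each end was 500.0 on every array. The tool behind them is not settled, and dim values of this kind are noisy. The 64 control probe sets were left out and log2 was taken. Names came from the platform annotation, updated to GRCm38.p6 (34945 probe sets with 1 gene, 932 with several, 9160 with none). Line differences were fitted over the 41409 kept probe sets with limma 3.58.1 in R 4.3.3 (lmFit, then eBayes with an intensity trend, two-sided). Simulated data held 100 probe sets changed 2-fold and 100 changed 4-fold, far fewer than the 9288 called here. The fit recovered 29% of the 2-fold changes (61.7% of those above the floor) and 72% of the 4-fold ones, with 7 false calls. With fewer true changes the adjustment is stricter, so these shares do not measure recovery in the real data. There too a difference above 2-fold could go uncalled, as at Ntrk2 1435196_at (1.13 on the log2 scale, adjusted p = 0.25 in limma). Ratios within arrays were tested by exact permutation (scipy 1.17.1). Figures were drawn with matplotlib 3.10.9.

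The members and lists were chosen with earlier results of these data known. Most genes were named by rule: every member probe set, in each list and direction the 2 called genes of lowest adjusted p, and the 3 nearest profiles of each bright member. Outside this rule were Sorcs1, Sorcs3, Nradd, Creb1, Crem, Rest and Htt, and the cell type markers. The alternatives tried were a stricter dim filter (a log2 of 6) or none, quantile or median scaling, log2(intensity + 32), a floor on low values, a fit with no trend, array weights, a block for sample number, omission of single arrays or of SThdh7/7 samples 1 and 2, and probe set means for genes.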

Additional observations from a re-analysis of the deposited data

Results flagged for a closer look

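Of 50 groups of 4 arrays, 2 for each member probe set, 2 held an array set apart from the other 3 by Dixon's criterion, and chance alone gives about 1 in 20. SThdh111/111 sample 1 was the highest of its line at Bdnf 1422168_a_at, at 1133 against 872 to 898 on the other 3, and without it the difference was -0.76. SThdh111/111 sample 4 was the lowest of its line at Ntrk3 1426003_at, at 46.9 against 125 to 145 on the other 3, of which 1 was above the floor. The difference there was -0.40, and -0.02 without that array.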

How the results depend on the processing

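Of the member calls, that of Bdnf 1422168_a_at was kept in all 18 alternatives that refitted it (-0.76 to -0.52, and -0.76 to -0.63 with 1 array left out). The mean over both Bdnf probe sets, another quantity, was also called (-0.52, adjusted p = 0.0014 in limma). Only 1 member probe set was called, against 3, after quantile normalization and after median centring, and 1 to 2 were with 1 array left out (1 without SThdh111/111 sample 2 or SThdh7/7 sample 4). Sort1 1423362_at lost its call after quantile normalization (-0.29), centring (-0.18), without an intensity trend (-0.34) and with the sample number as a replicate block (-0.34), and ran from -0.38 to -0.29 with 1 array left out. Sort1 1450955_s_at lost it after quantile normalization (-0.50), centring (-0.46), with the block (-0.62) and without SThdh7/7 samples 1 and 2 (-0.46), and ran from -0.71 to -0.55 with 1 array left out. With the block Bdnf 1422169_a_at passed (-0.37, adjusted p = 0.049). The sample numbers do not pair the arrays: deviations of same-numbered arrays correlated at -0.014 to 0.009, against -0.017 to 0.020 for other numbers. The block gave 8828 calls over all probe sets and 45 in the pathway lists. The cause of these changes was not tested.

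Uncalled values changed sign. Ngfr 1454903_at was -0.01 with the pseudocount of 32 and -0.33 with the floor, and ran from -0.41 to 0.65 with 1 array left out. The mean over the 2 tested Ngfr probe sets, another quantity, was -0.31, beside 0.07 at 1454903_at. Ntf5 was -0.04 and Ntrk2 1444121_at 0.02 with the floor. Ntrk2 1420838_at was -0.28 without SThdh7/7 samples 1 and 2, and ran from -0.45 to 0.53 with 1 array left out. The mean over the 8 Ntrk2 probe sets was -0.27, beside 0.20 at 1420838_at. With 1 array left out Ntrk2 1444121_at ran from -0.82 to 0.30, Ntrk3 1422329_a_at from -0.46 to 0.08 and Ntrk3 1433825_at from -0.14 to 0.26. Of the list genes named by rule only Plcg1 changed sign, with a mean over its probe sets of -0.10. Calls over all probe sets numbered 7022 to 9496 and those in the lists 34 to 47. Dim probe sets limit what can be seen of Ntrk2, Ntrk3, Ngfr and Ntf5.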
